A study of Mus musculus with 4 samples.

Results

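The cholesterol and isoprenoid synthesis genes are 26 mouse genes, named in a list, that encode the enzymes of the mevalonate and sterol pathway and its main regulators. A gene was taken where the array design gave a probe its exact symbol, with the brightest of its probes standing for it, provided that 2 or more of the 4 arrays showed it well above background. Under that rule 25 of the 26 genes were measured, among 23520 genes and other named features. All 25 were well above background on all 4 arrays, so none passed through 1 group alone. Acat2, the cytosolic acetyl-CoA acetyltransferase that opens the pathway, had no probe under its own symbol, and its level is not analysed here.

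The cells came from tumours grown from 4T1, a mouse mammary carcinoma line, implanted in BALB/C mice that received no treatment. They were sorted with the ALDEFLUOR reaction, which turns fluorescent in cells with aldehyde dehydrogenase (ALDH) activity, and total RNA of each sorted fraction was labelled with Cy3 for a one-colour Agilent array. The groups were ALDH-high cells and ALDH-low cells at zeitgeber time ZT12, and ALDH-high cells and ALDH-low cells at ZT0, with 1 array each. Zeitgeber time is counted in hours from lights on; how many mice gave each fraction, and what other gates the sort used, the sources used here do not say. With 1 array per group no difference between 2 groups has a replicate check, and precision is limited by having only 4 arrays.

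Cells build cholesterol from acetyl-CoA through mevalonate, isopentenyl and farnesyl diphosphate, squalene and lanosterol. Farnesyl diphosphate is the branch point from which cells also make geranylgeranyl diphosphate, a lipid attached to proteins to anchor them in membranes, as well as dolichol and ubiquinone. When sterol in the endoplasmic reticulum is low, SCAP carries the SREBP factors to the Golgi, where they are cut and released to switch on these genes; when sterol is high, the INSIG proteins hold SCAP back.

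The 4 arrays did not resemble each other by ALDH arm or by time. Over the 23520 features the Spearman correlation was 0.976 between ZT12 ALDH-high and ZT0 ALDH-low, which both lay at position 1_1 of their slide, and 0.959 between ZT0 ALDH-high and ZT12 ALDH-low, which both lay at position 1_2. The other 4 pairs gave 0.848 to 0.871. Both ZT12 arrays lay on one slide and both ZT0 arrays on another, so a time difference cannot be told apart from a slide difference, nor slide position from the ALDH-by-time combination. The same pairing of arrays would arise if the ALDH labels of the 2 arrays of one time were exchanged, which was not tested. With such an exchange the ALDH differences at that time would turn their sign, and the time comparisons would be between arrays of one slide position. The processed signal at the 75th percentile was 156.3 and 458.8 on the ZT12 ALDH-high and ALDH-low arrays, against 300.6 and 213.6 on the ZT0 ALDH-high and ALDH-low arrays. Of 59305 spots other than controls, 55.8% to 60.6% stood well above background, and 0 were saturated.

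The fractions are labelled as 4T1 cells, but markers of blood cells were also present on all 4 arrays. Of 13 measured epithelial markers 13, 13, 12 and 13 were well above background on the ZT12 ALDH-high, ZT12 ALDH-low, ZT0 ALDH-high and ZT0 ALDH-low arrays, and all 7 pan-leukocyte markers were above it on every array. In that order, the summed level of the epithelial list, relative to the 75th percentile of each array, was 99.0, 89.8, 12.8 and 205, and that of the leukocyte list was 340, 707, 1045 and 245. The ZT0 ALDH-high array was the lowest for epithelial markers and the highest for leukocyte markers. In such mixed RNA, fewer cells of a type and less RNA per cell cannot be told apart.

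All levels below are log2 signals relative to the 75th percentile of the array. All differences are differences of those levels in log2 units, so that 1 unit is 2-fold. Levels of different probes are not comparable with each other, so each probe is compared with itself between arrays. That comparison has a limit, since the arrays differed in the slope of signal against amount of spike-in control RNA. The slope was 0.79 on the ZT12 ALDH-high and 0.87 on the ZT0 ALDH-low array, both at position 1_1. It was 0.94 on the ZT12 ALDH-low and 0.96 on the ZT0 ALDH-high array, both at position 1_2. Subtracting a percentile does not correct a slope, and its part in the differences was not tested.

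**Figure D1:**
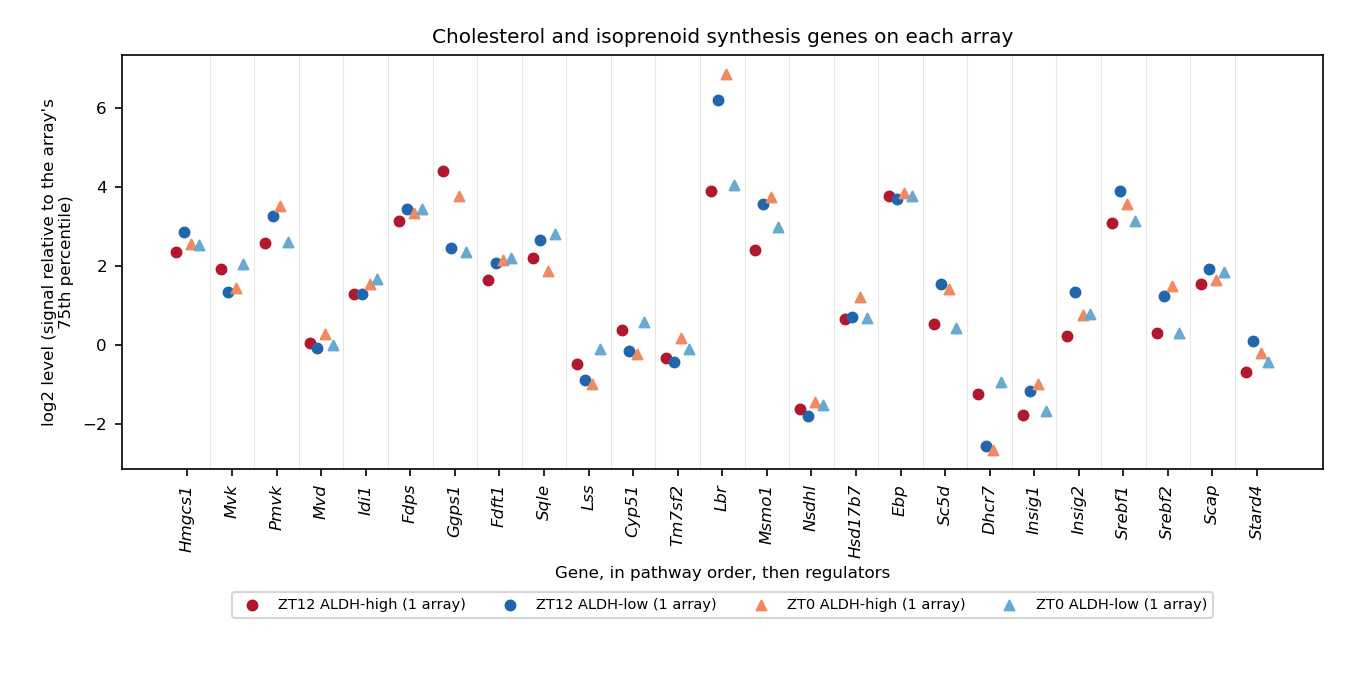
Level of each of the 25 measured genes (y axis, log2 signal relative to the 75th percentile of the array) on each of the 4 arrays, with genes along the x axis in pathway order and regulators last; each point is 1 array. For Lbr the ZT12 ALDH-low and ZT0 ALDH-high points lie above the other two, for Dhcr7 they lie below them, and for Ggps1 both ALDH-high points lie above both ALDH-low points.

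With the arrays scaled to their 75th percentiles, most of the pathway differed little between them. The range over the 4 arrays was under 1 log2 unit for 18 of the 25 genes (72%), against 29.4% of all features, and the median range was 0.79 for the pathway genes and 1.53 for all features. Among features well above background on all 4 arrays the share was 33.5%. This depended on the processing: with the arrays scaled to their medians, 7 genes (28%) had a range under 1 log2 unit, against 26.1% of all features. Quantile normalization alone gave 76% of the genes against 32.8% of all features. With the normexp background correction before it, the shares were 88% and 60.9%, and the median ranges 0.65 and 0.78. Ebp, the sterol isomerase, had the narrowest range. Its levels were 3.77 in ZT12 ALDH-high, 3.69 in ZT12 ALDH-low, 3.84 in ZT0 ALDH-high and 3.76 in ZT0 ALDH-low cells, a range of 0.14. A second Ebp probe gave ALDH differences of -0.17 at ZT12 and 0.53 at ZT0, so that narrow range belongs to 1 probe.

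ALDH-high cells were compared with ALDH-low cells at each time, the comparison the sort was made for. At ZT12, 3 of the 25 genes were at least 2-fold lower in ALDH-high cells (17.9% of all features were) and 2 were at least 2-fold higher (32.2% of all features). The 3 lower genes were Lbr, Msmo1 and Insig2, and the 2 higher genes were Ggps1 and Dhcr7. At ZT0, 1 gene was at least 2-fold lower in ALDH-high cells, Dhcr7 (31.5% of all features), and 3 were at least 2-fold higher, Lbr, Ggps1 and Srebf2 (20.5% of all features). Either way, that is 5 of 25 genes (20%) at ZT12 against 50.1% of all features, and 4 of 25 (16%) at ZT0 against 52% of all features. Among the 19319 features that were, like all 25 genes, well above background on all 4 arrays, the shares were 46.4% at ZT12 and 49.9% at ZT0.

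The median ALDH difference of the 25 genes was -0.38 at ZT12, where the median of all features was 0.30, and 0.09 at ZT0, where the median of all features was -0.32. These medians shift with the scaling of the arrays: median scaling moved the median of all features to -0.57 at ZT12 and to 0.17 at ZT0. Under it 15 of the 25 genes (60%) were past 2-fold at ZT12, against 59.1% of all features. Under the same scaling 9 genes (36%) were past it at ZT0, against 50.2% of all features. The scatter of the genes around their own median does not shift with an array-wide factor. Its interquartile range was 0.92 for the pathway genes and 2.16 for all features at ZT12, and 0.81 and 2.01 at ZT0. The ratio of the pathway's interquartile range to that of all features lay between 0.406 and 0.767 at ZT12, and between 0.401 and 0.792 at ZT0, over 8 ways of processing and a change of the Ggps1 probe. The 8 were the reported one, 4 other scalings or sources of the values, 2 other filters on background, and the mean over the probes of a gene. The 2 other filters could not change the value of any of the 25 genes, only the features beside them. The mean over probes could not change a gene with 1 probe above background.

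**Figure D2:**
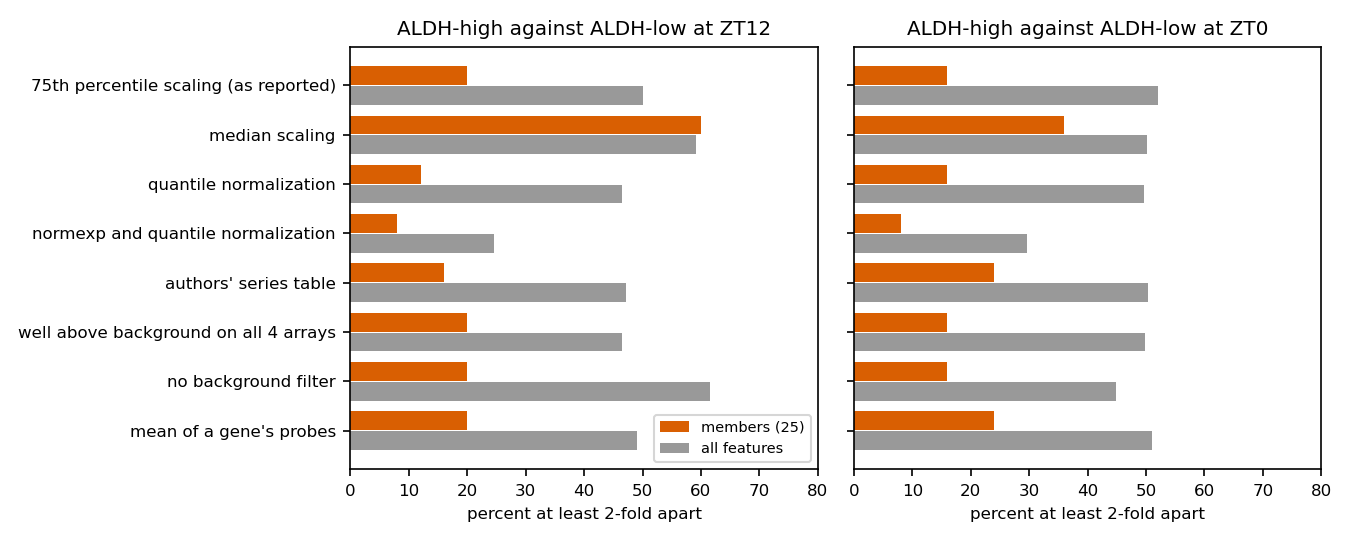
Percent of the 25 pathway genes (orange) and of all features (grey) that were at least 2-fold apart between ALDH-high and ALDH-low cells, at ZT12 (left) and at ZT0 (right), under 8 ways of processing the same arrays. At ZT12 the pathway share is below that of all features under 7 of them and level with it under median scaling (60% against 59.1%), and at ZT0 it is below under all 8.

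The sign of the ALDH difference was opposite at the 2 times for 15 of the 25 genes (60%), against 84.2% of all features. Of these, 10 genes were lower in ALDH-high cells at ZT12 and higher at ZT0. They were Hmgcs1, Pmvk, Lbr, Msmo1, Hsd17b7, Sc5d, Insig1, Srebf1, Srebf2 and Stard4. The reverse held for 5 genes, Mvk, Idi1, Lss, Cyp51 and Dhcr7. Another 5 genes were lower in ALDH-high cells at both times (Fdps, Fdft1, Sqle, Insig2 and Scap) and 5 were higher at both (Mvd, Ggps1, Tm7sf2, Nsdhl and Ebp). The share of all features in each single pattern was not counted, so these counts give no direction for the pathway. Many of these differences were small: 14 of the 25 genes kept their sign at ZT12 under all 8 ways of processing and 16 did at ZT0, the others changing sign under at least 1 of them. The share of all features that kept their sign was not counted, so whether the pathway stands apart in this is not known. Lbr and Dhcr7 were at least 2-fold apart in opposite directions at the 2 times, as were 35.4% of all features.

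**Figure D3:**
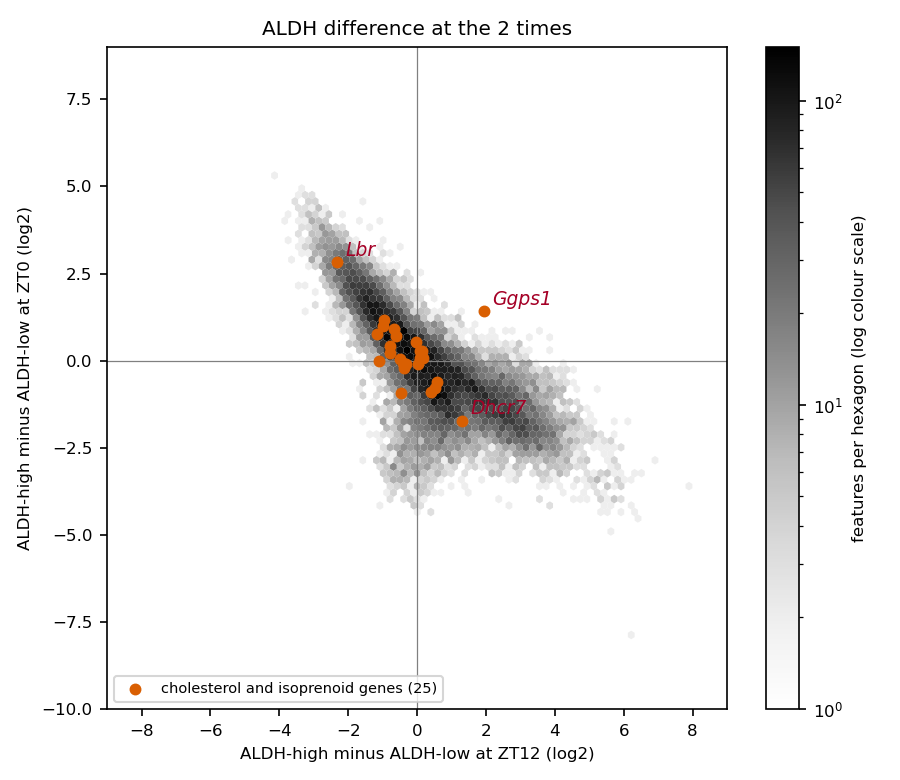
ALDH-high minus ALDH-low difference (log2) at ZT12 on the x axis and at ZT0 on the y axis, for the 25 pathway genes (orange points) and for all 23520 features (grey hexagons, darker where more features lie, on a log colour scale). Lbr lies at -2.32 and 2.82 and Dhcr7 at 1.31 and -1.72, in the quadrants of opposite sign that hold 84.2% of all features, while Ggps1 lies outside them at 1.94 and 1.41 on its brightest probe.

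No gene was called for ALDH arm or for time in a test over all arrays. The limma fit with ALDH arm and time as additive terms called 0 of 23520 features for ALDH arm (0%, with 7 at an unadjusted p under 0.05) and 0 for time (0%, with 2 at an unadjusted p under 0.05). Its 1 residual degree of freedom is the difference between the ALDH effects at the 2 times, which are not replicates of one condition. Every feature had a standard error of 1.54 log2 units. All differences given here are therefore descriptions of these 4 arrays.

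The first enzymes of the pathway make mevalonate and phosphorylate it. Hmgcs1, the cytosolic HMG-CoA synthase, had levels of 2.36 in ZT12 ALDH-high, 2.86 in ZT12 ALDH-low, 2.56 in ZT0 ALDH-high and 2.53 in ZT0 ALDH-low cells. The ALDH difference was -0.51 at ZT12 and 0.04 at ZT0. Its 4 levels lay close together, with the ZT12 ALDH-low array the highest. Its second probe gave wider differences of -1.06 and 0.82.

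Mevalonate kinase, Mvk, was 1.92 and 1.35 in ZT12 ALDH-high and ALDH-low cells, and 1.44 and 2.04 in ZT0 ALDH-high and ALDH-low cells. Phosphomevalonate kinase, Pmvk, ran the other way, with 2.58 and 3.26 in ALDH-high and ALDH-low cells at ZT12, and 3.51 and 2.59 at ZT0. For Mvk the arrays at position 1_1 were the higher ones, and for Pmvk those at position 1_2 were. The second Mvk probe gave an ALDH difference of 0.19 at ZT0, opposite in sign to the -0.60 of the probe used. Mvd, the mevalonate diphosphate decarboxylase, spanned 0.36 log2 units over the 4 arrays. None of these 4 enzymes was past 2-fold in either ALDH comparison.

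Isopentenyl diphosphate is next isomerised by Idi1 and joined into longer chains by Fdps, the farnesyl diphosphate synthase. Both were nearly level over the arrays. Idi1 had ALDH differences of 0.01 at ZT12 and -0.11 at ZT0, and Fdps had -0.31 and -0.10. The range over the 4 arrays was 0.38 for Idi1 and 0.31 for Fdps.

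Ggps1, the geranylgeranyl diphosphate synthase that starts the branch leading to protein geranylgeranylation, was the only pathway gene at least 2-fold higher in ALDH-high cells at ZT12 and at ZT0. The level of its brightest probe, A_55_P2727267, was 4.39 in ZT12 ALDH-high cells, against 2.44 in ZT12 ALDH-low cells. At ZT0 it was 3.76 in ALDH-high and 2.34 in ALDH-low cells. Both ALDH-high arrays were thus above both ALDH-low arrays, by 1.94 at ZT12 (3.84-fold) and by 1.41 at ZT0 (2.66-fold). The mean ALDH difference was 1.68 with a standard error of 1.54, and the limma fit gave an adjusted p of 1.

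That pattern rested on 1 of 6 Ggps1 probes, all of them well above background on all 4 arrays. At ZT0 the other 5 probes gave ALDH differences of 1.15 to 1.74, the same direction as the probe used. At ZT12 they gave -1.58 to -0.29, the opposite direction. Of these, the probe A_55_P2170569 had levels of 0.15 in ZT12 ALDH-high and 0.78 in ZT12 ALDH-low cells, and 1.44 in ZT0 ALDH-high and 0.28 in ZT0 ALDH-low cells. The mean over all 6 probes put Ggps1 at -0.39 at ZT12. Ggps1 was the only gene of the pathway with a probe of opposite sign at least 1 log2 unit from the one used.

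The brightest Ggps1 probe lies at chr13:14154796-14154855 on the minus strand in mouse genome build mm9. It is 8775 bases upstream, along the gene, of the nearest of the other 5. The array design annotates it by a cDNA clone and the other 5 by RefSeq transcripts; whether it lies in an exon, an intron or a UTR was not analysed here. The A_55_P2170569 probe lies at chr13:14144710-14144769 on the same strand. The first 30 of the 60 bases of both are printed because the direction of Ggps1 at ZT12 depends on which is read.
Ggps1, A_55_P2727267: aaaggaaaggaaacctgtttcaggaaaaag
Ggps1, A_55_P2170569: tactcagctatatataagtttgtgaccagt

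**Figure D4:**
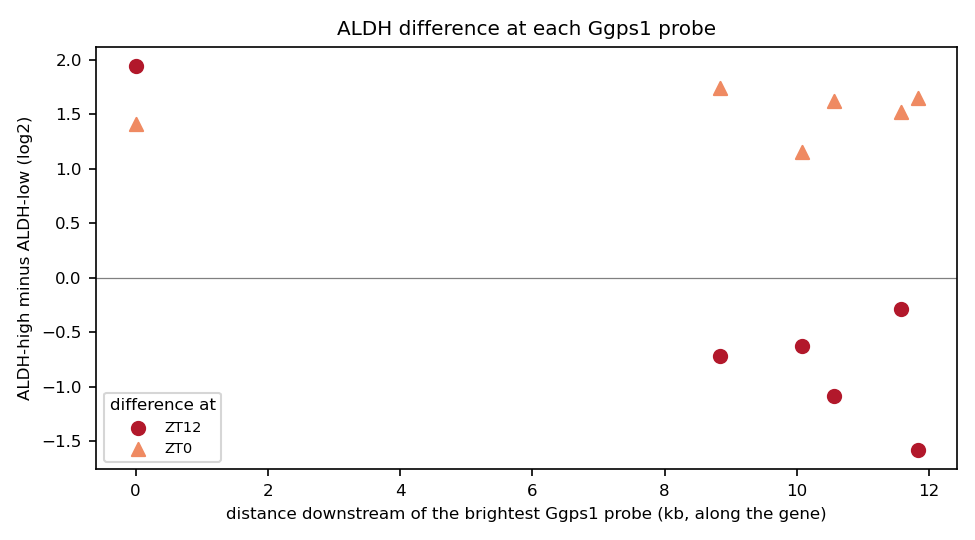
ALDH-high minus ALDH-low difference (y axis, log2) at each of the 6 Ggps1 probes, at ZT12 (circles) and ZT0 (triangles), against the distance of the probe downstream of the brightest one along the gene (x axis, kb). At ZT0 all 6 probes lie above 0, and at ZT12 the brightest probe lies at 1.94 and the other 5 lie between -1.58 and -0.29.

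Squalene is made by Fdft1, the squalene synthase, epoxidised by Sqle and closed into the first sterol by Lss, the lanosterol synthase. Sqle was lower in ALDH-high cells at both times, short of 2-fold. It had 2.19 in ZT12 ALDH-high against 2.67 in ZT12 ALDH-low cells, and 1.87 in ZT0 ALDH-high against 2.81 in ZT0 ALDH-low cells. Both ALDH-low arrays were above both ALDH-high arrays on the 1 probe above background, and the sign was kept under all 8 ways of processing at both times. Fdft1 differed by -0.42 at ZT12 and -0.06 at ZT0. Lss differed by 0.40 at ZT12 and -0.90 at ZT0. Of its 2 other probes, A_51_P296487 had the same signs, with 0.25 and -1.02. The probe A_52_P118161, with 0.13 and -2.50, was well above background on only 2 arrays, so its signs add nothing.

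Of the 9 measured enzymes that turn lanosterol into cholesterol, Ebp, Nsdhl, Hsd17b7 and Tm7sf2 had ranges between 0.14 and 0.59 log2 units over the arrays. Nsdhl is a sterol dehydrogenase of the demethylation steps, and its second probe departed from the one used, with 1.64 against 0.17 at ZT12 and -0.70 against 0.09 at ZT0. Hsd17b7, the keto-sterol reductase that follows it, differed by -0.04 at ZT12 and 0.52 at ZT0. Tm7sf2 and Lbr encode alternative enzymes for the same sterol reduction. Tm7sf2 differed by 0.09 at ZT12 and 0.28 at ZT0, with a second probe at -0.13 at ZT0.

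Lbr had the widest range of all 25 genes. Its product, the lamin B receptor, is also a protein of the inner nuclear membrane that binds chromatin. The level was 3.89 in ZT12 ALDH-high against 6.21 in ZT12 ALDH-low cells, and 6.85 in ZT0 ALDH-high against 4.03 in ZT0 ALDH-low cells. The arrays at position 1_2 were high and those at position 1_1 were low. ALDH-high cells were thus 4.98-fold lower at ZT12 and 7.06-fold higher at ZT0, and Lbr was past 2-fold in both under all 8 ways of processing. As Lbr has 1 probe, only the 4 other scalings or sources could change its values.

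The pan-leukocyte genes were split by slide position as Lbr was, with both position 1_2 arrays above both position 1_1 arrays. Ptprc, which encodes the leukocyte antigen CD45, had 4.29 and 6.63 in ZT12 ALDH-high and ALDH-low cells, and 7.19 and 4.10 in ZT0 ALDH-high and ALDH-low cells. The 7 leukocyte markers had ALDH differences between -2.35 and -0.24 at ZT12 and between 1.17 and 3.09 at ZT0, and the 10 neutrophil markers had medians of -2.14 and 3.29. Of these 10, 3 were higher in ALDH-high cells at ZT12, unlike Lbr. They were Csf3r, with 1.70 at ZT12 and -0.72 at ZT0, S100a9, with 1.27 and -0.26, and S100a8, with 0.57 and 0.35. The summed level of the neutrophil list was 3092 and 1991 in ZT12 ALDH-high and ALDH-low cells, and 3246 and 2260 in ZT0 ALDH-high and ALDH-low cells, so the sum was higher in ALDH-high cells at both times. All 10 genes of the neutrophil list were well above background on every array. The part of these cells in the Lbr difference was not tested.

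Dhcr7, the reductase that makes cholesterol from its immediate precursor in one branch of the pathway, had the opposite order. It had -1.25 in ZT12 ALDH-high against -2.56 in ZT12 ALDH-low cells, and -2.67 in ZT0 ALDH-high against -0.95 in ZT0 ALDH-low cells. Here the arrays at position 1_1 were high and those at position 1_2 low. ALDH-high cells were 2.48-fold higher at ZT12 and 3.30-fold lower at ZT0, with the sign kept under all 8 ways of processing. The ZT12 difference was past 2-fold only under the 4 of them that could not change its value. Under the 4 other scalings or sources it was 0.44 (median scaling), 0.75 (quantile normalization), 0.41 (normexp with quantile normalization) and 0.77 (the authors' series table). Before scaling, the processed signal was low, at 65.9 and 77.8 in ZT12 ALDH-high and ALDH-low cells. At ZT0 it was 47.3 and 110.7. The order of the ZT12 pair thus depended on scaling the arrays. The T and NK cell, B cell and macrophage lists, with medians of 4.70, 5.59 and 2.29 at ZT12 and -3.01, -3.24 and -2.02 at ZT0, had the signs of Dhcr7 at both times. The red cell list, with 5 of 8 genes measured, had 6.55 and -8.39. Its genes Alas2 and Slc4a1, and Cd79a of the B cell list, were well above background on only 2 arrays. They passed the filter through the arrays where they were high, so their signs add nothing. Hba-a1, well above background on all 4 arrays, had 6.16 and -7.85. Single members went against their list, such as Cd3d of the T cell receptor complex, with 1.03 and 1.90, and the integrin gene Itgax, with -0.23 and 0.73. The epithelial list had these signs as well, with a median of 0.55 at ZT12, where 12 of 13 genes were higher in ALDH-high cells, and of -3.57 at ZT0, where all 13 were at least 2-fold lower. The part of these lists in the Dhcr7 difference was not tested.

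The probes of both genes are given because both genes were past 2-fold in opposite directions at the 2 times, and each is the only probe of its gene. The Lbr probe lies at chr1:183745502-183745561 on the minus strand and the Dhcr7 probe at chr7:151033874-151033933 on the plus strand, in mm9. The first 30 of 60 bases are shown.
Lbr, A_55_P2865103: cacagtatctggacattaggtgcaagttgt
Dhcr7, A_55_P2022337: tcagaggccattgaagaagggaggcttttt

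Msmo1, the methylsterol oxidase, and Sc5d, the sterol desaturase, had the same split by slide position as Lbr, over a smaller range. Msmo1 had 2.40 in ZT12 ALDH-high against 3.56 in ZT12 ALDH-low cells, and 3.75 in ZT0 ALDH-high against 2.98 in ZT0 ALDH-low cells. Its 2 other probes gave -1.39 and -0.72 at ZT12 and 1.19 and 1.11 at ZT0, the same signs. Sc5d was 0.53 against 1.53 at ZT12 and 1.42 against 0.43 at ZT0, in ALDH-high against ALDH-low cells. Both differences of Sc5d were just short of 2-fold, and its second probe gave -1.74 and 0.90. Cyp51, the lanosterol demethylase, had the order of Dhcr7, with differences of 0.52 at ZT12 and -0.80 at ZT0, the ZT12 sign turning under 1 of the 8 ways of processing.

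The 6 regulator and transport genes were all lower in ALDH-high cells at ZT12, and each kept that sign under all 8 ways of processing. How many of all features were lower, or kept their sign, was not counted. Some of the differences shrank under other processing, with Scap at -0.04 and Srebf1 at -0.35 under quantile normalization. Their median difference was -0.79, against a median of 0.30 over all features, and 1 of them, Insig2, was past 2-fold. At ZT0 their median was 0.31, against -0.32 over all features, with 4 higher and 2 lower in ALDH-high cells. These 6 genes were a group of the list by role, and their shared direction at ZT12 has no test.

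Srebf2, which encodes the SREBP factor most tied to sterol genes, had 0.29 in ZT12 ALDH-high against 1.24 in ZT12 ALDH-low cells, and 1.48 in ZT0 ALDH-high against 0.30 in ZT0 ALDH-low cells. Both position 1_2 arrays were again the higher ones, and its second probe gave -0.93 and 0.87. Srebf1, which encodes the factor of fatty acid and sterol genes, differed by -0.79 at ZT12 and 0.41 at ZT0, the ZT0 sign turning under 3 of the 8 ways of processing. Scap, the escort protein, was nearly level, at -0.38 and -0.22.

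Insig1 and Insig2 encode the retention proteins that hold SCAP in the endoplasmic reticulum. Insig2 had 0.22 in ZT12 ALDH-high against 1.33 in ZT12 ALDH-low cells, and 0.75 in ZT0 ALDH-high against 0.78 in ZT0 ALDH-low cells. The ZT12 pair was apart and the ZT0 pair was level, with 1 of its 2 other probes at 0.87 at ZT0. Insig1 differed by -0.62 at ZT12 and 0.70 at ZT0. Stard4, a soluble sterol carrier, differed by -0.79 at ZT12 and 0.22 at ZT0, and by -0.80 and 0.97 on its second probe.

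Comparing times within an ALDH arm uses the same 4 arrays, so these values are not independent of the ALDH differences. In ALDH-high cells 3 genes were at least 2-fold lower at ZT12 than at ZT0 (20.8% of all features), Lbr by 2.96, Msmo1 by 1.35 and Srebf2 by 1.19 log2 units. Dhcr7 was the 1 gene at least 2-fold higher at ZT12, by 1.42 (32.5% of all features). In ALDH-low cells Dhcr7 was the 1 gene at least 2-fold lower at ZT12 than at ZT0, at -1.61 (32.7% of all features), and 2 genes were at least 2-fold higher (17.5% of all features). These were Lbr, by 2.17, and Sc5d, which had 1.53 at ZT12 against 0.43 at ZT0. Either way that is 4 of 25 genes in ALDH-high cells against 53.2% of all features, and 3 of 25 in ALDH-low cells against 50.1%. Among features well above background on all 4 arrays the shares were 50.9% and 46.2%. The median over the 25 genes was -0.26 in ALDH-high cells, against 0.33 over all features, and 0.02 in ALDH-low cells, against -0.42 over all features. Lbr, Dhcr7, Srebf2, Msmo1 and Sc5d, the genes past 2-fold in either arm, thus had time differences of opposite sign in the 2 arms. Other genes did so too, such as Pmvk at -0.93 and 0.67, and the share of all features that did so was not counted. Ggps1 was 0.63 in ALDH-high and 0.10 in ALDH-low cells at its brightest probe. Its other 5 probes had opposite signs, with -2.17 to -1.02 in ALDH-high and 0.50 to 1.06 in ALDH-low cells.

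Arrays at one slide position differ in both ALDH arm and time, and between them most of the differences were small. At position 1_1, ZT12 ALDH-high minus ZT0 ALDH-low, 1 of the 25 genes was at least 2-fold apart and it was higher (3.72% of all features were higher and 3.06% lower, 6.78% in all). At position 1_2, ZT0 ALDH-high minus ZT12 ALDH-low, it was also 1 of 25, again higher (14.4% of all features were higher and 6.45% lower, 20.9% in all). That gene was Ggps1 in both, higher in ALDH-high cells by 2.04 and by 1.31 at its brightest probe. At the probe A_55_P2170569 the same differences were -0.13 and 0.66. Lbr differed by -0.14 and 0.65, and Dhcr7 by -0.30 and -0.11. Sqle was lower in ALDH-high cells in both, at -0.62 and -0.80, and so was Insig2, at -0.56 and -0.58.

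The first 250 bases upstream of the start of the gene were read for 22 of the 26 listed genes, Acat2 among them, in the RefSeq promoter table of build GRCm38.p6, which holds 30 promoters for them. The letters TCACNCCAC, a form of the sterol regulatory element to which SREBP factors bind, were searched on both strands, as were CCAAT, the box bound by NF-Y, and GGGCGG, the box bound by SP1. Each motif was scored on its own, whether or not it overlapped another. TCACNCCAC was found in 1 of the 30 promoters, that of Hmgcs1, and in 1.05% of all 32851 promoters in the table. CCAAT was in 21 of the 30, against 33.8% of all, and GGGCGG in 23 of the 30, against 32.7% of all. A match describes the letters in that window and is not a measured binding site.

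The promoter of Hmgcs1 is printed for its match, in capitals. That of Ggps1 is printed because the direction of its ALDH difference depended on the probe, and that of Srebf2 because it encodes the SREBP factor most tied to sterol genes, with CCAAT on either strand in capitals. Hmgcs1 lies at chr13:119690101-119690350 on the plus strand, Ggps1 at chr13:14063489-14063738 on the minus strand and Srebf2 at chr15:82147019-82147268 on the plus strand, in GRCm38.p6. The Ggps1 window holds 3 CCAAT boxes and 0 GGGCGG boxes, and that of Srebf2 holds 1 and 4.
Hmgcs1: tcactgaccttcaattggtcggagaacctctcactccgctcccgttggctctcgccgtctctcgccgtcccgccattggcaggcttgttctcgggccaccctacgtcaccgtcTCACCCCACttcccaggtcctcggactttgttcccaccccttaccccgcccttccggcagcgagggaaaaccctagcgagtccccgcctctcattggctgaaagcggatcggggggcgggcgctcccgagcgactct
Ggps1: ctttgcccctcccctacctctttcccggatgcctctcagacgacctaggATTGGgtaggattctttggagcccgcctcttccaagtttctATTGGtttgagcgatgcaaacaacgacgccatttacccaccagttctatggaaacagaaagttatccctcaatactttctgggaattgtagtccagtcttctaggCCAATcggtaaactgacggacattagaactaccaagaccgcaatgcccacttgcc
Srebf2: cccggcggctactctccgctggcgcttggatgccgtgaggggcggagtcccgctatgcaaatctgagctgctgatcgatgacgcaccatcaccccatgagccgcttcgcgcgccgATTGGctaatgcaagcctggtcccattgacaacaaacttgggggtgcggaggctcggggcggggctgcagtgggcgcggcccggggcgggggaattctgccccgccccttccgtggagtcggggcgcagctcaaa

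Genes that supply, use or traffic the products of the pathway were followed in 6 further lists. Among 15 measured genes of cholesterol uptake and transport, 6 were at least 2-fold lower and 3 at least 2-fold higher in ALDH-high cells at ZT12. At ZT0, 2 of them were lower and 8 higher. Either way that is 60% of the list at ZT12 and 66.7% at ZT0, against 50.1% and 52% of all features. The medians were -0.82 and 1.09. Npc2, which moves cholesterol out of lysosomes, differed by 0.35 and -0.65, and Stard3, a late endosomal sterol carrier, by -0.73 and 1.30.

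Of 11 genes of cholesterol export and of targets of the sterol-sensing LXR receptors, 4 were at least 2-fold lower and 2 higher at ZT12, and 2 lower and 4 higher at ZT0. That is 54.5% of the list at each time, near the 50.1% and 52% of all features. Abcg1, a sterol exporter of macrophages and other cells, had 3.14 against 4.43 at ZT12 and 4.34 against 2.58 at ZT0, in ALDH-high against ALDH-low cells. Nr1h2, which encodes the receptor LXR-beta, differed by -0.95 and 1.58. Both were split by slide position as Lbr and the leukocyte markers were, and the part of leukocytes was not tested.

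The list of SREBP processing and sterol-regulated degradation had 5 of 15 genes at least 2-fold lower and 1 higher at ZT12, with a median of -0.75, and 2 lower and 2 higher at ZT0, with a median of 0.19. Either way that is 40% of the list at ZT12 and 26.7% at ZT0, below the 50.1% and 52% of all features. Mbtps1, the site-1 protease that first cuts the SREBP factors in the Golgi, differed by -0.64 and -0.40, and Vcp, the ATPase that extracts proteins for degradation, by 0.03 and -0.56. Among 12 fatty acid synthesis genes 2 were lower and 3 higher at ZT12, and 6 lower and 2 higher at ZT0. That is 41.7% and 66.7% of the list, against the same 50.1% and 52% of all features. Acly, which makes cytosolic acetyl-CoA, differed by -0.32 and 0.29, and Mid1ip1, an activator of acetyl-CoA carboxylase, by -1.59 and 2.06.

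The 19 genes that use isoprenoids, for prenylation, dolichol and ubiquinone, had 3 lower and 1 higher at ZT12, and 5 lower and 5 higher at ZT0. That is 21.1% and 52.6% of the list, against 50.1% and 52% of all features. Fnta, the alpha subunit of the enzymes that prenylate proteins, differed by -0.55 and -0.05, and Nus1, a subunit of the dolichol-making prenyltransferase, by -0.27 and 0.04. Of 5 genes that supply electrons to the sterol oxidases, 2 were at least 2-fold lower at ZT12 and 2 at least 2-fold higher at ZT0. That is 40% of the list at each time, against 50.1% and 52% of all features. Por, the cytochrome P450 reductase, had 3.90 against 5.79 at ZT12 and 6.22 against 3.49 at ZT0, in ALDH-high against ALDH-low cells. Cyb5r3, the cytochrome b5 reductase, differed by -0.27 and -0.85.

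**Figure D5:**
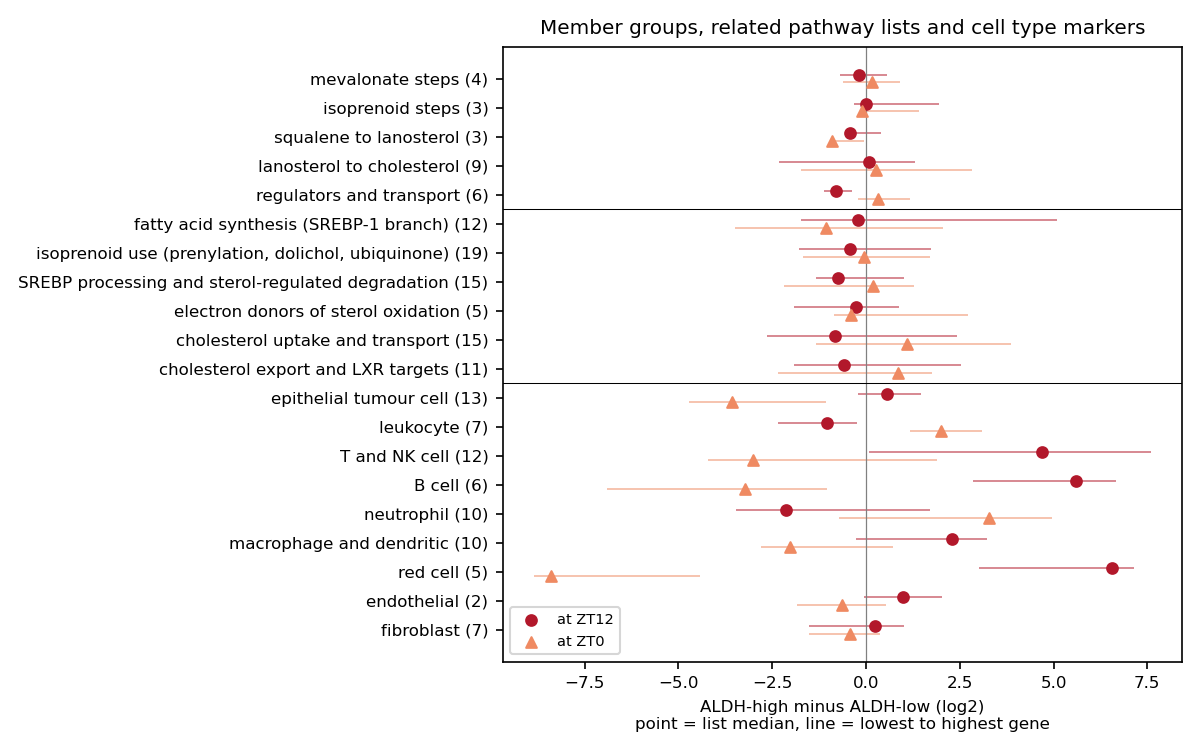
ALDH-high minus ALDH-low difference (x axis, log2) of 5 groups of pathway genes, 6 related lists and 9 cell type marker lists (y axis, with the number of measured genes), at ZT12 (circles) and ZT0 (triangles). Points are list medians and lines run from the lowest to the highest gene. The pathway groups have medians between -0.90 and 0.31, while the red cell list has 6.55 at ZT12 and -8.39 at ZT0. Of the red cell genes, Alas2 and Slc4a1 were well above background on only 2 arrays.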

How the data were processed

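Each of the 4 groups of sorted cells was measured on 1 array. The file headers name Agilent Feature Extraction 10.7.1.1 and mouse build mm9, while the submitters' processing notes name version 9.5.1.1. Per the file headers, the deposited intensity (processed signal) is linear, with background removed and a spatial trend corrected inside each array, and it is not normalized between arrays. The authors' deposited series table, also intensity, ranked probes as their own arrays did (Spearman 1 in each of its 4 columns) and served as an alternative; 0 of its columns had no sample. Replicate spots were averaged on the log2 scale, control spots and outlier spots were left out, and each array's 75th percentile was subtracted. The brightest of a gene's probes was used, over 56605 probes and 23520 features. The 26 genes and all lists were chosen with earlier results of these data known. All members are named, as are the 2 genes with the highest mean level in each further list. Differences were counted past 2-fold. ALDH arm and time were fitted with limma 3.58.1 (R 4.3.3), two-sided, with Benjamini-Hochberg adjustment across every feature and a threshold of 0.05. The fit was run on simulated data with independent noise and no split by slide position. That run therefore does not show how the fit behaves on these 4 arrays. Python 3.11.15, pandas 2.3.3, numpy 2.4.6 and matplotlib 3.10.9 were used. Probe positions are in mm9 as the files give them; promoters come from the RefSeq table of GRCm38.p6, and those of Stard4, Fdft1, Sqle and Fdps were not analysed here. A probe named Acat3 also lists an Acat2 accession, and these near-identical copies cannot be told apart; it differed by 0.17 at ZT12 and -0.50 at ZT0.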

Additional observations from a re-analysis of the deposited data

Results flagged for a closer look

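For 4 genes, 5 probes were at least 2-fold apart between ALDH-high and ALDH-low cells at both times, in opposite directions. The difference between the times was not tested, since each group has 1 array. The ALDH-high minus ALDH-low value at ZT12 minus that at ZT0 was -5.13 for Lbr and 3.03 for Dhcr7, each on its only probe. It was -2.58 for the Msmo1 probe A_66_P104901, which is not the brightest of that gene. For Ggps1 it was -2.70 at A_55_P2727579 and -3.23 at A_66_P109845, and the brightest Ggps1 probe gave 0.53. The same pattern was found in 35.4% of all features.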

How the results depend on the processing

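Lbr, Dhcr7, Srebf2, Msmo1, Pmvk, Sc5d, Insig1 and Stard4 kept their sign in all 4 comparisons under all 8 ways of processing, and Lbr was past 2-fold in all of them. Of the 8, the 2 other filters on background could not change any of these values, nor could the mean over probes for genes with 1 probe. How many of all features kept their sign in this way was not counted. Median scaling, which adds 1 constant per comparison, left 7 genes with a range under 1 log2 unit over the arrays and put 14 genes lower and 1 higher by at least 2-fold between ALDH arms at ZT12, and 8 higher at ZT0; by time it put 11 lower and 0 higher in ALDH-high cells, and 0 lower and 10 higher in ALDH-low cells, which is 44% of the genes against 51.1% of all features and 40% against 53.4%. The median of the pathway relative to that of all features was -0.68 (ALDH at ZT12), 0.40 (ALDH at ZT0), -0.58 (time in ALDH-high) and 0.43 (time in ALDH-low). In the same order it was -0.14, -0.0184, -0.25 and 0.0583 under quantile normalization, -0.14, -0.0235, -0.25 and 0.0567 in the authors' series table, and -0.12, -0.10, -0.21 and 0.00125 under normexp with quantile normalization. It was -0.58, 0.33, -0.51 and 0.32 over features well above background on all 4 arrays, and -1.38, 0.65, -1.08 and 0.93 with no background filter, through the other features tested. The mean of a gene's probes gave 0.61, -0.80 and 0.51 in the last 3. The other counts past 2-fold that differed from the reported ones were as follows. At ZT12, quantile normalization, the series table, the mean of probes and the RefSeq-annotated Ggps1 probe each left 1 gene higher, and normexp left 1 lower and 1 higher; 2 were lower under quantile normalization and 4 under the mean of probes. At ZT0, 2 genes were lower under quantile normalization and under the mean of probes, 3 in the series table, and 1 was higher under normexp, 2 under quantile normalization and 4 under the mean of probes. By time in ALDH-high cells, 2 were higher under quantile normalization and in the series table, and 1 was lower under normexp, 2 under quantile normalization, 4 at the RefSeq-annotated Ggps1 probe and 5 under the mean of probes. By time in ALDH-low cells, 2 were lower and 1 higher under quantile normalization and in the series table, 0 lower and 1 higher under normexp, and 1 higher under the mean of probes. Ggps1 at ZT12 turned to -0.39 under the mean of its probes and to -0.63 at its RefSeq-annotated probe, which also put the pathway's relative median by time in ALDH-high cells at -0.79. The RefSeq-annotated probe and the comparisons by slide position were chosen after seeing the data. Beyond that the cause was not tested.

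limma called 0 features for ALDH arm without each array in turn, and 0 to 1 for time, the 1 without ZT12 ALDH-high (adjusted p = 0.0439); these fits leave out the other factor and take the lone array of a group to vary as the others do. With slide position in place of the other factor, added after seeing the data, 0 were called for either. In that limma fit 1915 of 23520 features had an unadjusted p under 0.05 for ALDH arm and 362 for time. Its median standard error was 0.296 for ALDH arm and 0.425 for time. A random block for position was planned and not run, as its correlation could not be estimated. No paired analysis was possible because each group has 1 array, so the groups share only 1 replicate number. All 25 genes were well above background on all 4 arrays, but the handling of low signals still mattered. Dhcr7 at ZT12 was 1.31 as reported, 0.75 under quantile normalization and 0.41 under normexp with quantile normalization.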
